A study of Drosophila melanogaster with 6 samples.

Results

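Lysosomal alpha-mannosidases are enzymes of the acidic interior of the lysosome that remove alpha-linked mannose from the sugar chains of glycoproteins being broken down. The fly genome carries several genes for them, named LMan, whose assignment in the authors' deposited table rests on sequence similarity rather than on measured activity. DHR96 (current symbol Hr96) is a nuclear receptor of Drosophila melanogaster known for its part in responses to xenobiotics and in the handling of dietary lipids and sterols.

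The members described here are the 5 probe sets, 1 for each of 5 genes, whose molecular function in the authors' deposited table reads alpha-mannosidase activity. They are LManIII (CG9463), LManV (CG9466), LManVI (CG9468), LManII (CG6206) and LManI (CG5322), out of 260 probe sets in that table and 18769 non-control probe sets on the array. RNA of whole adults was measured on 3 arrays of the strain labelled DHR96 (DHR96 mutant) and 3 arrays of the strain labelled Canton-S (Canton S), the controls that the study describes as genetically matched. Both groups spent 7 days on standard food as adults. The allele, the sex of the animals, and whether the replicates came from separate collections of flies were not given in the sources used here, so the spread between replicates may be technical. Because the animals were taken whole, fewer cells of a type and less RNA per cell cannot be told apart.

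The members entered by their result. The authors chose the rows of their table on this same comparison, with folds of at least 1.301 in size and q-values of at most 2.181%, so every difference between the groups below is a description and carries no test. LManI lay nearest to the edge, with a fold of 1.32 and a q-value of 1.009% in the authors' deposited table, and the other 4 had q-values of 0. Members just outside the limit cannot be given, because probe sets absent from the table carry no gene name here.

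Intensities were on a linear scale, with array medians between 470.4 and 484.2 and lowest values between 97.2 and 103.4. The probe set of the targeted gene Hr96 read 977, 985 and 928 on the DHR96 mutant arrays, against 527, 498 and 546 on the Canton S arrays. It was thus higher in the mutant, and since the position of the mutation relative to the probes was not given, it does not check the labels. A poly-A spike-in control (Dap, 3' end) set 2 of the mutant arrays apart, reading 1217, 473 and 519 in DHR96 mutant replicates 1, 2 and 3, against 1188, 1208 and 1007 in Canton S. Each member is therefore also given for the fit that treats these 2 arrays as a block, in which the mutant value comes from replicate 1 alone.

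All 5 members were lower in the DHR96 mutant, and for none of them did the groups overlap. Across the array, the groups failed to overlap in this direction for 17.0% of probe sets. With limma and Benjamini-Hochberg adjustment over 18769 probe sets, 3.67% were called lower and 6.96% were called in either direction; all 5 members were among those called lower, a count that their selection on this comparison makes uninformative. The median log2 difference of the members was -1.67, beside -0.0015 for all probe sets. Ordered from the largest fall among 18769 probe sets, LManV, LManVI, LManIII, LManII and LManI stood at ranks 2, 3, 6, 22 and 131.

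**Figure D1:**
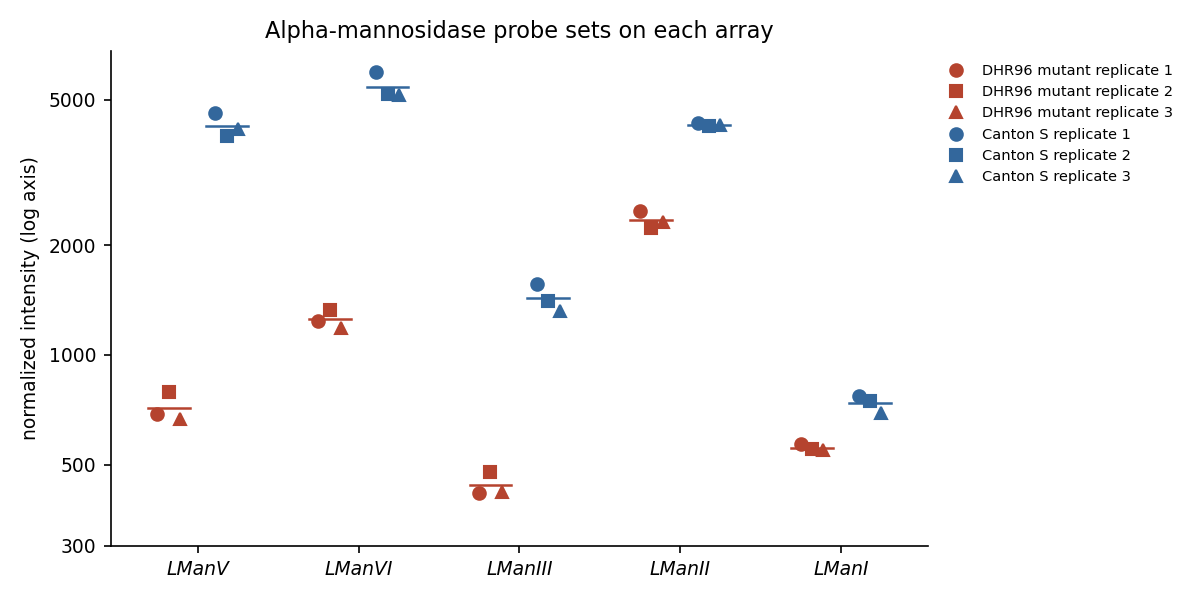
Normalized intensity (log axis) of the 5 alpha-mannosidase probe sets on each array, with DHR96 mutant arrays in red left of Canton S arrays in blue; symbols mark the replicate number and lines the group means. For LManV the mutant arrays lie between 668 and 792 and the Canton S arrays between 3982 and 4591, while for LManI the highest mutant value, 569, is close under the lowest Canton S value, 692.

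LManV had the largest difference of the family. Its probe set read 691, 792 and 668 in the DHR96 mutant, against 4591, 3982 and 4172 in Canton S. The lowest Canton S array was 5.03 times the highest mutant array. The means were 717 ± 66.0 in the mutant and 4248 ± 311 in Canton S (SD, n = 3 each), so that 16.9% of the Canton S intensity was left. On the log2(intensity + 16) scale, used for all log2 differences here, this was -2.54 (SE 0.0747), mutant minus Canton S.

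LManVI, the gene next to LManV, read 1242, 1330 and 1187 in the DHR96 mutant, against 5972, 5180 and 5167 in Canton S. Here too the groups were far apart, with the lowest Canton S array 3.88 times the highest mutant array. Its mean was 1253 ± 72.2 in the mutant and 5440 ± 461 in Canton S (SD, n = 3 each), or 23.0% of the Canton S intensity. The log2 difference was -2.10 (SE 0.0664).

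LManIII read 418, 478 and 421 in the DHR96 mutant, against 1564, 1409 and 1317 in Canton S. No mutant array came near the control range, the lowest Canton S array being 2.76 times the highest mutant array. The mean was 439 ± 33.9 in the mutant and 1430 ± 125 in Canton S (SD, n = 3 each), or 30.7% of the Canton S intensity, and the log2 difference was -1.67 (SE 0.0762). The mutant values of LManIII were around or under the array medians, on a scale whose background was not taken to 0. With the lowest value of each array subtracted, an alternative chosen after seeing the data, LManIII was 3.79-fold lower instead of 3.18-fold, LManV 6.59-fold instead of 5.82-fold, and LManVI 4.58-fold instead of 4.29-fold.

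The remaining pair differed less. LManII read 2476, 2224 and 2321 in the DHR96 mutant, against 4326, 4250 and 4265 in Canton S, or 2340 ± 127 and 4280 ± 40.3 (SD, n = 3 each). It kept 54.7% of the Canton S intensity, and its Canton S arrays lay closer together than those of any other member, with a coefficient of variation of 0.942%. The log2 difference was -0.87 (SE 0.0424).

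LManI had the smallest difference, reading 569, 552 and 549 in the DHR96 mutant, against 769, 748 and 692 in Canton S. Its lowest Canton S array was 1.22 times its highest mutant array, so the groups were separate but close. The means were 557 ± 10.8 in the mutant and 736 ± 40.2 in Canton S (SD, n = 3 each), or 75.6% of the Canton S intensity, with a log2 difference of -0.39 (SE 0.0501). It was the 1 member not called by limma with the spike-in split as a block, a fit in which 0.165% of all probe sets were called; its log2 difference there was -0.36.

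The differences were larger in one of the 2 gene clusters of the family than in the other. In the gene order of Release 6 of the fly genome, used for names and neighbours alone because the build behind the files was not given, LManIII, LManIV, LManV and LManVI are 4 consecutive protein-coding genes, and LManI and LManII are next to each other elsewhere. The 3 measured genes of the first cluster had log2 differences from -2.54 to -1.67, and the pair of the second cluster had -0.87 and -0.39. No mutant array of a gene in the first cluster came closer to its Canton S mean than -1.55, and no mutant array of LManI or LManII went below -0.94. With 3 genes against 2, all chosen on this comparison, this contrast between clusters was not tested.

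LManIV (CG9465), which stands between LManIII and LManV, is not in the authors' deposited table. Its probe set could not be picked out of the unnamed rows, and its level was not analysed here. The 4 protein-coding genes that flank the clusters, CG12438 and CG42710 around the first and ppk10 and RluA-1 around the second, include 0 genes of the table. The probe set names of 4 members end in the plain form that the manufacturer uses for sets matching a single transcript, and that of LManII in the form for sets matching several transcripts of 1 gene. Related sequence shared between neighbouring copies, and any signal it would pass from one to another, was not tested, since probe sequences were not used here.

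**Figure D2:**
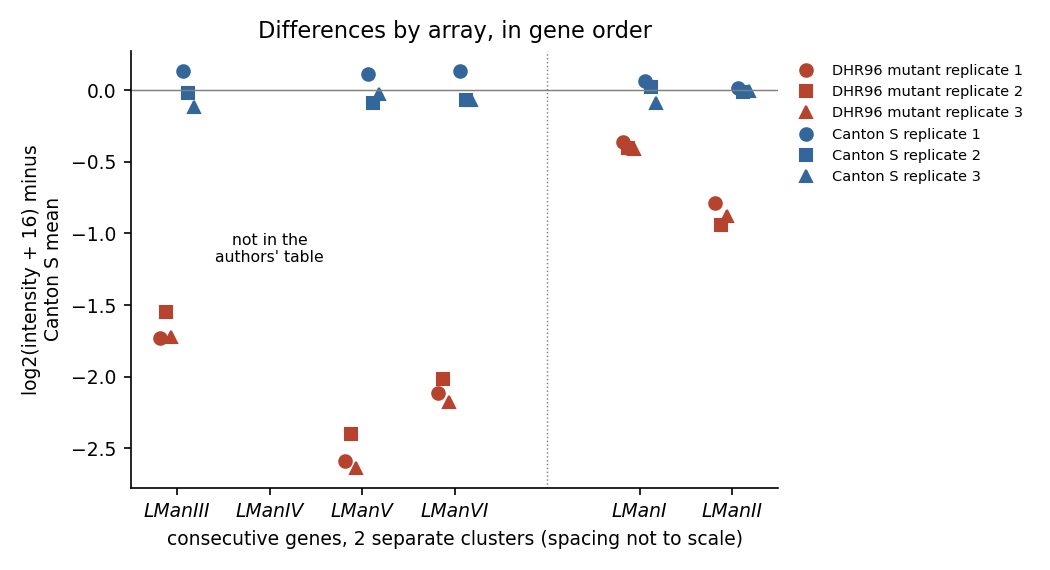
Log2(intensity + 16) of each array minus the Canton S mean of the gene, for DHR96 mutant arrays (red, left) and Canton S arrays (blue, right), with genes in their order along the 2 clusters and the spacing not to scale. Mutant arrays of LManIII, LManV and LManVI lie between -2.64 and -1.55, and those of LManI and LManII between -0.94 and -0.36; LManIV has no value.

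Some members also shared part of their small spread within a group. Among the DHR96 mutant arrays, replicate 2 was the highest for LManV, LManVI and LManIII, with log2 differences from the Canton S mean of -2.40, -2.02 and -1.55, while the other arrays read -2.59 and -2.64 for LManV. The same array was the lowest for LManII, at -0.94 against -0.79 and -0.88 in replicates 1 and 3. For LManI it lay in the middle, at -0.40 against -0.36 and -0.41 in replicates 1 and 3. Among the Canton S arrays, replicate 1 was the highest for all 5 members, though for LManII the arrays lay only between -0.010 and 0.015. The share of all probe sets that were highest on that array was not counted. Between neighbours in the order of the differences, the ranges of the 3 mutant arrays did not overlap: LManV spanned -2.64 to -2.40, LManVI -2.18 to -2.02, LManIII -1.73 to -1.55, LManII -0.94 to -0.79 and LManI -0.41 to -0.36.

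That order held under every processing choice tried. Over 17 alternatives the log2 difference ranged from -2.72 to -2.47 for LManV, from -2.19 to -2.03 for LManVI, from -1.92 to -1.57 for LManIII, from -0.91 to -0.79 for LManII and from -0.46 to -0.36 for LManI. With the spike-in split as a block, LManV, LManVI, LManIII and LManII differed by -2.59, -2.11, -1.73 and -0.79, so the differences were about as large in the mutant array whose spike-in reading was like that of Canton S. With any 1 array left out, all 5 members were lower.

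**Figure D3:**
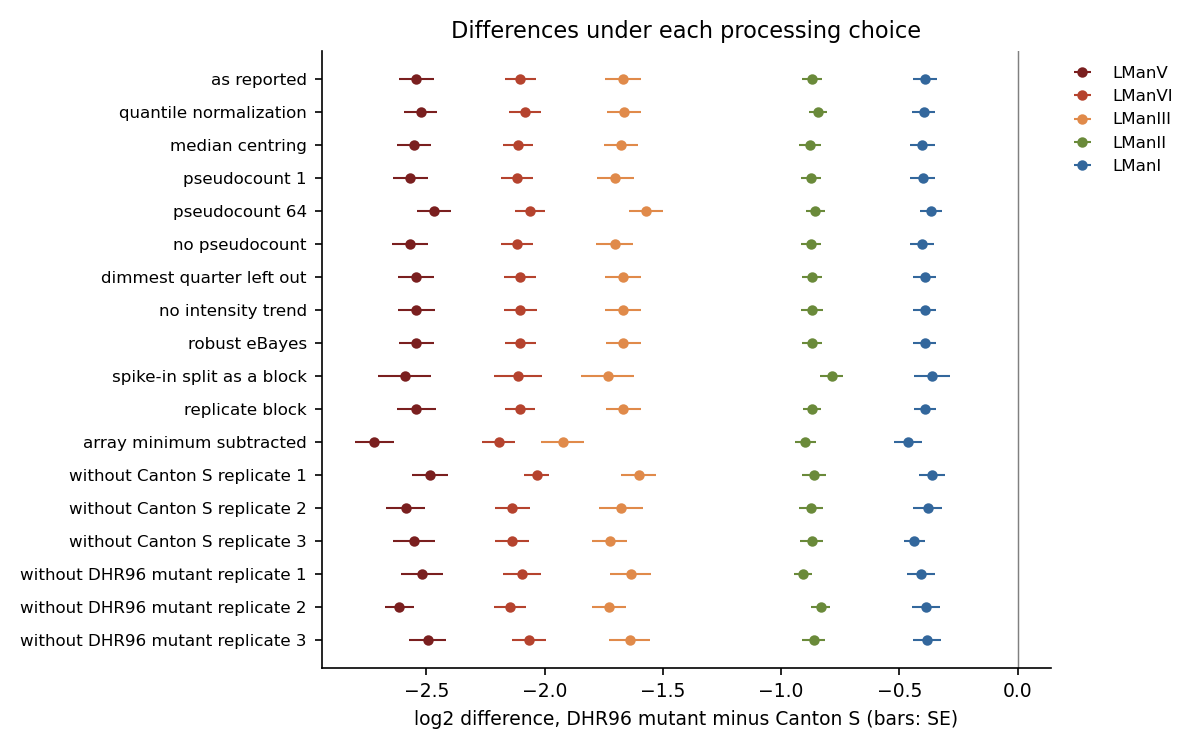
Log2 difference (DHR96 mutant minus Canton S, bars are standard errors) of each member under the reported setting and 17 alternatives. The 5 genes keep the same order in every row, from LManV, between -2.72 and -2.47, to LManI, between -0.46 and -0.36.

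Other genes of the lysosome did not share one direction. Of a list of 18 lysosomal glycosidase genes, 6 are in the authors' table: the 5 members, all lower, and Gba1a, a gene for the glucosylceramide-splitting enzyme glucocerebrosidase. Gba1a read 1043, 1143 and 982 in the DHR96 mutant, against 735, 896 and 701 in Canton S. Its groups were separate and its difference was opposite in sign to that of the mannosidases, with a log2 difference of 0.44 (SE 0.0954). Gba1a was called by limma with all arrays, which its selection on this comparison makes uninformative. That call was lost without Canton S replicate 1 or 3, without any 1 of the 3 mutant replicates, and without the intensity trend. With the spike-in split as a block the log2 difference of Gba1a was 0.43.

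Ctns, a gene for the lysosomal cystine transporter and the other gene with a lysosome term in the table, was lower in the mutant. It read 1036, 1001 and 1028 in the DHR96 mutant, against 1325, 1365 and 1333 in Canton S, with a log2 difference of -0.39 (SE 0.0348). With the spike-in split as a block its log2 difference was -0.37. The difference was thus of the size seen for LManI.

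Of 14 genes for lysosomal proteases, membrane and lipid proteins, 1 is in the table: Trpml, an ion channel of the lysosomal membrane. Trpml read 1179, 1109 and 1205 in the DHR96 mutant, against 741, 833 and 594 in Canton S, a log2 difference of 0.69 (SE 0.109). Its limma call with all arrays was lost without Canton S replicate 1 or mutant replicate 1 or 3, and with the replicate number as a block. With the spike-in split as a block its log2 difference was 0.71. Of 14 genes that trim or build N-glycans in the secretory pathway, among them the Golgi alpha-mannosidases, 0 are in the table, which says only that none was selected by the authors. The authors picked all of these genes on the same arrays, so their directions are not independent evidence.

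The other gene of the table with a mannose term was CG8343, annotated with mannose binding. It read 1101, 1048 and 1023 in the DHR96 mutant, against 2323, 2624 and 2026 in Canton S. The groups were separate, and the log2 difference was -1.12 (SE 0.0860), a size between those of LManIII and LManII. With the spike-in split as a block the log2 difference of CG8343 was -1.06.

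The genes of the table whose profile over the 6 arrays was nearest to the mean of LManIII, LManV and LManVI were mag, CG13325, CG8343, CG10514 and CG8329, by Euclidean distance on the log2 scale after the Canton S mean was taken off. The distance was 0.406 for mag, the gene of the lipase magro, 0.681 for CG13325, and from 1.74 to 1.83 for the other three. The 3 genes that make the mean lay at 0.0453 (LManVI), 0.759 (LManIII) and 0.762 (LManV) from it, so mag and CG13325 were nearer to it than LManIII and LManV, and LManII and LManI stood at 2.16 and 2.97. This distance largely follows the size of the fall, in rows that were selected on this comparison. It therefore does not test whether the genes vary together. CG13325 read 162, 156 and 169 in the DHR96 mutant, against 557, 576 and 644 in Canton S, so its mutant values were close to the lowest of the arrays. With array minima subtracted its log2 difference was -2.70 instead of -1.77, and the distances were computed on the unsubtracted scale alone. The mag probe set read 1354, 1334 and 1373 in the DHR96 mutant, against 4980, 5773 and 5689 in Canton S, a log2 difference of -2.00 (SE 0.0568) that lies between those of LManVI and LManIII. Its replicates ran differently from those of the mannosidases: Canton S replicate 1 was the lowest for mag and the highest for all 5 members, and mutant replicate 2 was the lowest for mag.

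**Figure D4:**
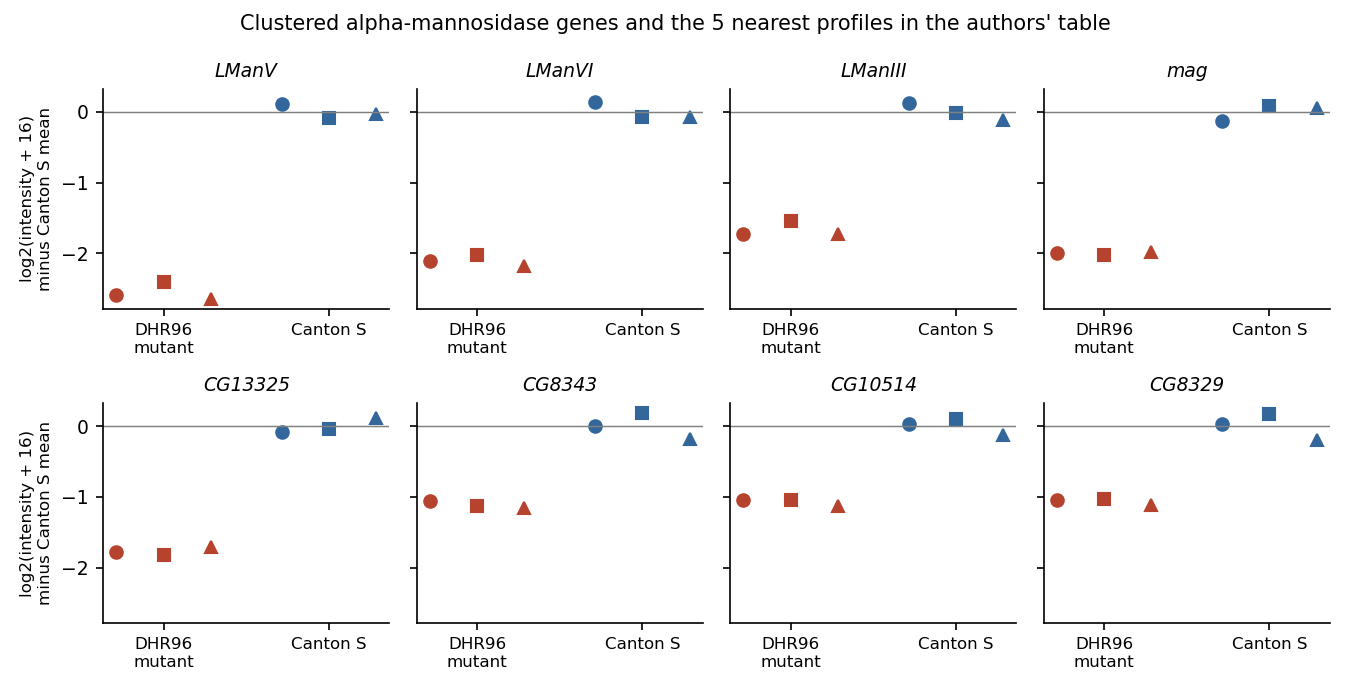
Log2(intensity + 16) minus the Canton S mean on the 3 DHR96 mutant arrays (red, left) and the 3 Canton S arrays (blue, right), symbols marking the replicate number, for LManV, LManVI and LManIII and the 5 nearest profiles in the authors' table. The mutant arrays of mag lie near -2, within the span of the 3 mannosidases, and those of CG8343, CG10514 and CG8329 near -1.1.

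Tissue markers that moved alongside the mannosidases could be counted only among genes of the authors' table. Of the 260 probe sets of that table, 80 were lower in the DHR96 mutant and 180 were higher. Of 37 midgut genes, 7 are in the table. Limma called 6 of these lower in the mutant, and called Npc1b, a gene for sterol uptake, higher. Across the array limma called 3.67% of probe sets lower and 6.96% in either direction. The authors chose the rows of the table on this comparison, which makes the calls of listed genes uninformative. The genes called lower became 4 without Canton S replicate 1 or 3 or mutant replicate 1 or 3, and 5 without Canton S replicate 2. They were also 4 with limma's robust variance estimate and with the replicate number as a block. With the spike-in split as a block, the log2 differences of the 6 lower genes ranged from -2.00 (mag) to -0.53 (Jon99Ci). That of Npc1b was 1.40 there, and in this fit mutant replicate 1 alone sets the difference. The summed intensity of the 7 genes was 16426 to 20347 in the DHR96 mutant and 31874 to 34264 in Canton S. Mutant replicate 2, the highest mutant array for LManIII, LManV and LManVI, was also the highest mutant array for the digestive protease genes Jon65Ai, Jon65Aii, Jon99Fi and iotaTry, but not for the protease gene Jon99Ci, for Npc1b or for mag, and it was the lowest mutant array for mag. Jon99Fi read 3523, 4877 and 3802 in mutant replicates 1, 2 and 3, against 8163, 8082 and 8398 in Canton S, and Jon99Ci read 5756, 5458 and 5078 in the same mutant arrays, against 8207, 8179 and 8639 in Canton S.

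Of 8 fat body genes, 6 are in the table. All 6 were higher in the mutant, and 5 of them passed limma's adjusted threshold, all but Lsp1beta (log2 difference 0.62). Selection of the rows on this comparison makes these calls uninformative too. The summed intensity of the 6 genes was 13244 to 18631 in the DHR96 mutant and 6481 to 8311 in Canton S. With the spike-in split as a block 0 of these passed limma's adjusted threshold, 2 passed without Canton S replicate 1 or 3, and 3 passed without Canton S replicate 2. Of 13 accessory gland genes, 1 is in the table, Acp76A, which read 11614 to 12601 in the mutant and 8798 to 9778 in Canton S. The table holds 0 of 4 Malpighian tubule genes and 0 of 11 testis genes. The part of tissue composition in the differences of the mannosidases was not tested.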

How the data were processed

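Total RNA (6 ug per the labels) of whole flies was hybridised to Affymetrix arrays. The authors deposited linear intensities, already normalized between arrays, since quantiles nearly coincide. MAS5 is listed in the submitters' processing notes; the background and summary methods are not given in the sources used here. The authors' deposited table gives, per the file headers, a SAM score, a log2 numerator, a signed fold (stored as a score) and a q-value in percent; the numerator equalled mutant minus Canton S within 5.68e-10.

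From these values, log2(intensity + 16) was fitted with limma 3.58.1 in R 4.3.3 (lmFit, eBayes with an intensity trend, group as the only term) over 18769 probe sets, leaving out 183 manufacturer's controls, with Benjamini-Hochberg adjustment, two-sided, at 0.05. All members passed, since no filter on low values was set. On simulated data the fit recovered 98% of probe sets changed 2-fold and 66% of those changed 1.3-fold. The number of arrays limits the precision. Genes were named through CG numbers and the Release 6 gene table (248 of 260 probe sets matched; 3 naming several genes were left out); a gene with several probe sets was read from its brightest. The named genes were the members, listed genes and members' neighbours present in the table, and the 5 nearest profiles; Ctns and CG8343's ontology terms were taken up after their values were seen. Members and lists were chosen with earlier results of these data known. Planned descriptions of promoter motifs and protein identity were not made, since sequences were not used here. Alternatives covered scaling, pseudocount, a filter, variance models, blocks and single arrays left out.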

Additional observations from a re-analysis of the deposited data

How the results depend on the processing

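The members' differences depended little on the processing, whereas the number of probe sets called across the array did. All 5 members were lower under 17 of 17 alternatives. Their calls, which their selection on this comparison makes no sign of stability, numbered 5 except with the spike-in split as a block, where they were 4. Their median log2 difference was -1.67, and it moved by more than the replicate SD of 0.0935 with a pseudocount of 64 (-1.57) and with array minima subtracted (-1.92). The 1306 probe sets called became 813 without the intensity trend and 31 with the spike-in split as a block, which leaves 1 mutant array to set the difference, and 287 to 803 with 1 array left out (the lowest without Canton S replicate 1). Other causes were not tested. Higher calls were 617 of 1306, against 630 of 1093 after quantile normalization. With the replicate number as a block 240 probe sets and all 5 members were called. Same-numbered arrays deviated with correlations of 0.19, -0.22 and -0.24, so arrays did not all correlate best with their own number. Mutant replicates 1, 2 and 3 correlated best with Canton S replicates 1 (0.19), 3 (0.30) and 2 (0.26). A block by these matches was not tested. Dim signals over an unsubtracted background limit the folds; with array minima subtracted LManIII moved most of the 5 members on the log2 scale, to -1.92.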
